A study of Homo sapiens with 12 samples.

Results

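The mitosis genes described here are 35 genes whose products enter, run or finish cell division, chosen by symbol from a table of raw counts that lists 30017 symbols. All 35 were in the table and all 35 passed the filter on low counts, which kept 16010 genes, and the lowest count of any of them in any library was 412. They were measured by polyA RNA sequencing of THP-1 cells, an established line grown from a human acute monocytic leukaemia. Wild-type cells had received Cas9 without a guide RNA, and IRAK4 knockout cells Cas9 with a guide against IRAK4, a kinase that acts below Toll-like receptors. Both were grown from single cells, and each genotype was given DMSO or 50 nM CC-885 for 12 h, which makes 4 groups of 3 libraries. CC-885 attaches to cereblon, which selects substrates for a ubiquitin ligase, and brings about the destruction of GSPT1, a protein that ends translation. The labels do not give the number of clones per genotype, nor say that replicates are separate cultures, so an effect of IRAK4 loss and a difference between clones cannot be told apart, and p-values measure the spread between these libraries only.

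Mitosis genes are transcribed in a wave that builds through G2 and peaks as cells divide. Cyclins A and B with CDK1 start mitosis, the Polo and Aurora kinases build the spindle, kinetochores and the spindle checkpoint tie chromosomes to it, and the anaphase-promoting complex with its activator CDC20 ends it by having cyclin B and securin degraded. Motor proteins, the chromosomal passenger complex and a contractile ring then separate the cells. The complex of MuvB proteins, MYBL2 and FOXM1 drives many of these genes through a short promoter element, the cell cycle genes homology region, and the DREAM complex, which uses the same element, represses them when CDKN1A is induced. In a leukaemia line that divides without pause, their transcripts in a bulk sample report both how many cells are in G2 and mitosis and how much each cell holds, and fewer such cells and less RNA per cell cannot be told apart.

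Libraries held 46903984 to 56675539 counts. Levels are given as CPM, which are counts scaled to library size, with the SD of 3 libraries where a mean is shown. IRAK4 stood at 52.2 ± 1.57 and 72.8 ± 9.53 CPM in wild type (DMSO, then CC-885), and at 8.26 ± 0.847 and 30.7 ± 1.05 CPM in knockout. All 11 markers of a monocytic leukaemia line were above 1 CPM in every group, whereas the defining genes MS4A1 (B cells), CD3E and CD3G (T cells) and CDH5 (endothelium) had no count in any library. Summed monocytic markers were 3021 to 3069 CPM in wild type and 3448 to 4392 CPM in knockout with DMSO, and 1881 to 2028 and 1557 to 1595 CPM with CC-885. Sums for other cell types reached 20.0 CPM (T and NK cells), 8.53 CPM (B cells) and 0.693 CPM (erythroid cells), and 94.0 to 443 CPM for epithelial, stromal and endothelial markers, nearly all of it PECAM1, which monocytes also express. Their part in the results was not tested. Wild-type CC-885 replicate 3 stood apart from replicates 1 and 2 of its group, with a chi-square of 76.1 and 62.3 per degree of freedom where replicates 1 and 2 differed by 5.05, and where pairs in the other groups differed by 4.10 to 21.02. Many results that rest on it are therefore also given without it.

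CC-885 lowered most mitosis genes in both genotypes. In wild type, 32 of 35 were lower and 0 higher in edgeR's quasi-likelihood test (Benjamini-Hochberg adjusted p under 0.05 over all genes), where the drug lowered 36.6% and raised 35.7% of all genes tested. DESeq2 likewise gave 0 higher, as did an unadjusted p under 0.05. In knockout, 27 were lower and 2 higher, where 40.0% of all genes were lower and 38.9% higher. The median log2 fold change of the 35 genes was -0.63 in wild type and -0.70 in knockout, against -0.03 over all genes in each. The sum of their levels went from 6275 ± 194 to 4072 ± 103 CPM in wild type and from 5101 ± 236 to 3915 ± 84.3 CPM in knockout. Of the 35 genes, 26 were lower in both genotypes and 2, AURKA and CDC20, were called in opposite directions. In wild type 8 of 35 genes had a log2 fold change of -1 or lower, a larger share than the 13.1% over all genes. In knockout 12 did, a larger share than the 20.5% over all genes. With all libraries, no fall passed 2.54-fold in wild type or 2.69-fold in knockout. Without wild-type CC-885 replicate 3, CDK1 (-1.08) and MAD2L1 also fell past -1. KIF20A came close to that limit, at a mean of 49.4 CPM in treated replicates 1 and 2 and 98.9 CPM under DMSO.

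**Figure D1:**
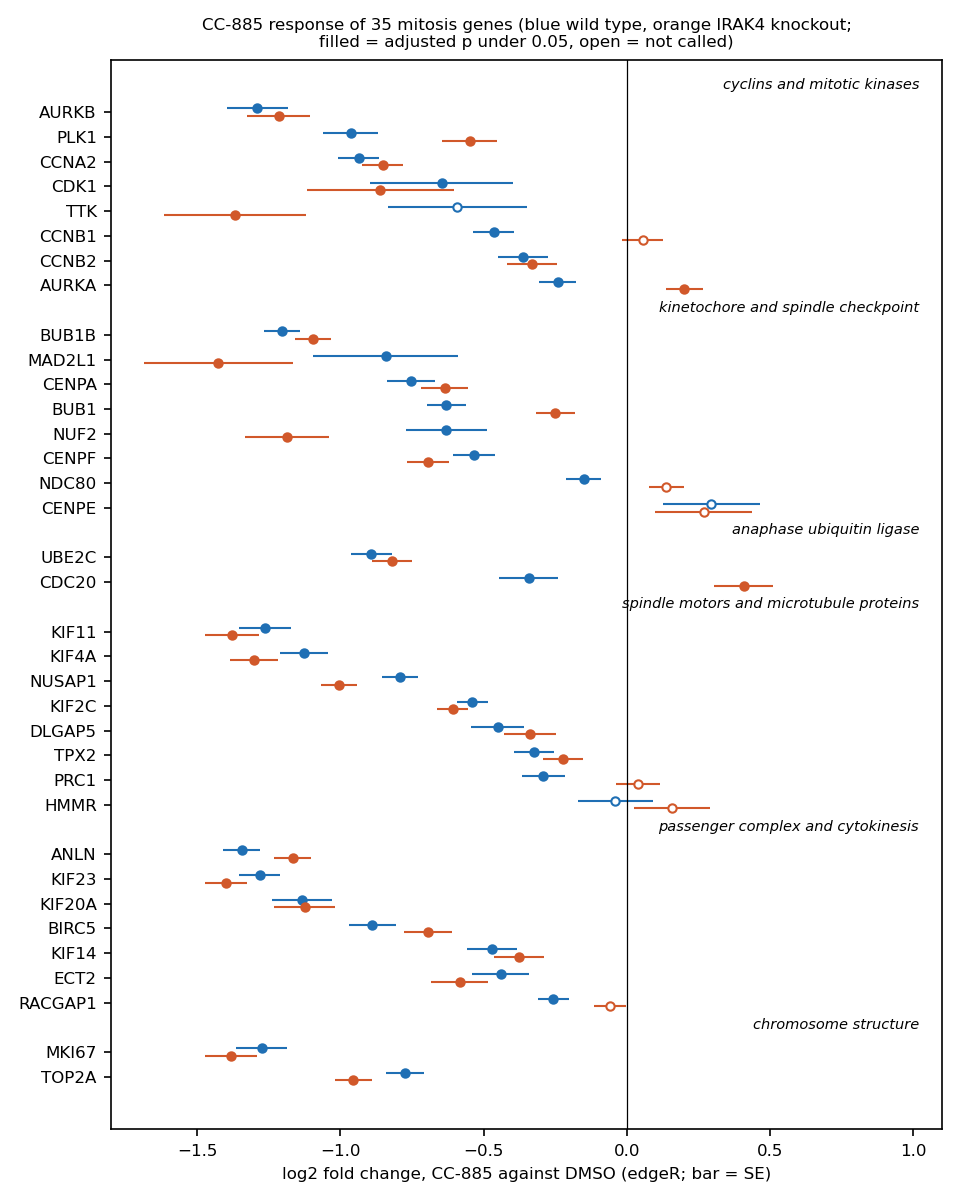
Log2 fold change of each mitosis gene under CC-885 against DMSO in wild type (blue) and IRAK4 knockout (orange), grouped by role, with bars for the standard error and open symbols for genes that did not pass the test. Most genes lie left of 0 in both genotypes, while AURKA and CDC20 lie left of 0 in wild type and right of it in knockout.

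The promoters of most of these genes hold the letters of the cell cycle genes homology region. Of the 35 genes, 29 had an entry in the RefSeq promoter table (GRCh38.p14; 250 bases before to 50 after the start of transcription), and TTK, AURKA, UBE2C, TPX2, BIRC5 and RACGAP1 did not. The core of the cell cycle genes homology region was searched as TTTGAA or TTTAAA on both strands (TTTAAA reads the same on both), and it was found in 26 of 29 promoters (89.7%), against 24.3% of all 27305 promoters in the table. CCNA2, AURKB and BUB1 had neither form. CCAAT, the element bound by NF-Y, was searched on both strands and found in 23 of 29 (79.3%), against 35.7% of all promoters. The 2 kinds occurred together in 20 of 29 (69.0%), against 9.49%. Among 34 promoters of DNA replication genes, 3 (8.82%) held TTTGAA or TTTAAA and 20 (58.8%) held CCAAT. A match describes letters and is not a binding site. Over the 26 genes with TTTGAA or TTTAAA, the median log2 fold change was -0.64 in wild type and -0.67 in knockout. Over the 3 genes without these letters it was -0.94 and -0.85. No other form of the element was searched, so these 3 cannot be said to lack it, and its part in the response was not tested.

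The sequences printed here are the 150 bases before the start of the gene with the deepest mean fall in each of the 4 largest roles (AURKB, BUB1B, KIF11, KIF23), of the gene that fell least (CENPE), and of CDC20, which was added because its response turned with genotype. Each runs 5′ to 3′ on the gene's strand, with matches to the searched letters in capitals (TTCAAA and ATTGG are TTTGAA and CCAAT on the other strand).
AURKB, chr17:8210226-8210375, minus strand: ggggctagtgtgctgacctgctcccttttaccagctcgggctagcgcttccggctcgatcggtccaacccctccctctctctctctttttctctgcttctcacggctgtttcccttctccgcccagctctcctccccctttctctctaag
BUB1B, chr15:40160919-40161068, plus strand: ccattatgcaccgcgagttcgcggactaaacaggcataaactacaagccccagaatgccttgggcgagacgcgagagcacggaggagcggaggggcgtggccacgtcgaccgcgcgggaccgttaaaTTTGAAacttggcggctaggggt
KIF11, chr10:92592980-92593129, plus strand: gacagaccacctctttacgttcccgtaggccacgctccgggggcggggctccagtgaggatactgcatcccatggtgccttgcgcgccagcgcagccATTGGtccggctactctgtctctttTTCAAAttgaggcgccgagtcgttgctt
KIF23, chr15:69414199-69414348, plus strand: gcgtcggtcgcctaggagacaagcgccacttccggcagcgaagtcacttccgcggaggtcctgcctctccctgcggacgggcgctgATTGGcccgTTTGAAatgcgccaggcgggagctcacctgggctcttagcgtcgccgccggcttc
CENPE, chr4:103198344-103198493, minus strand: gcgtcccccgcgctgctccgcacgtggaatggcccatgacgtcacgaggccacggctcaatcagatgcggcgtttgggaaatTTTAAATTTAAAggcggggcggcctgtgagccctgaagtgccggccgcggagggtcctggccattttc
CDC20, chr1:43358831-43358980, plus strand: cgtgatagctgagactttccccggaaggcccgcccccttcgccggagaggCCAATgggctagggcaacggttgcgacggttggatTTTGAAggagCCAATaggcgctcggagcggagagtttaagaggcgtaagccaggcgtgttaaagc
The AURKB stretch holds no match, and the 1 CCAAT of its searched promoter lies outside the stretch. Within the printed bases, BUB1B, KIF11, KIF23 and CDC20 each have 1 TTTGAA, which begins 23, 28, 55 and 65 bases before the start. Over the whole searched promoter CDC20 has 2 TTTGAA, and KIF23 also has 1 TTTAAA. CENPE has 2 adjoining copies of TTTAAA in the printed bases and 3 in its searched promoter. CDC20 has the printed TTTGAA between 2 CCAAT boxes. Links between these letters and the responses were not tested. BUB1B was chosen by its fall with all libraries. MAD2L1, of the same role, stood in wild-type CC-885 replicate 3 at 2.01 times the mean of replicates 1 and 2. The choice of BUB1B over MAD2L1 rests on that library.

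Among cyclins and mitotic kinases, 7 of 8 fell in wild type, and in knockout 6 fell and AURKA rose. AURKB, the kinase of the chromosomal passenger complex, read 28.2, 29.1 and 28.5 CPM with DMSO and 12.9, 12.9 and 9.29 CPM with CC-885 in wild type. In knockout it read 20.6, 19.5 and 19.0 CPM, then 7.84, 8.96 and 8.66 CPM. The groups did not overlap in either genotype, and the log2 fold changes were -1.29 ± 0.11 (SE; edgeR adjusted p = 1.71e-08) and -1.22 ± 0.11 (3.08e-08). PLK1, the Polo kinase of centrosome maturation and mitotic entry, read 221, 198 and 203 CPM with DMSO and 116, 117 and 84.9 CPM with CC-885 in wild type. In knockout the libraries read 168, 162 and 172 CPM with DMSO and 112, 120.0 and 112 CPM with CC-885. Its fall was -0.96 ± 0.10 in wild type and -0.55 ± 0.10 in knockout, with no overlap of the groups. CCNA2 (cyclin A2) fell by a like amount in both, to 52.2% of its DMSO level in wild type (-0.94 ± 0.07) and 55.4% in knockout (-0.85 ± 0.07), and CCNB2 (cyclin B2) to 77.7% (-0.36 ± 0.09) and 79.5% (-0.33 ± 0.09).

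Cyclin B1 and Aurora A departed from the others by genotype. CCNB1, the cyclin that activates CDK1 at entry, read 213, 186 and 189.8 CPM with DMSO and 152, 147 and 128 CPM with CC-885 in wild type. In knockout it read 149.8, 158 and 151 CPM, then 152, 167 and 157 CPM. All wild-type CC-885 libraries lay below all wild-type DMSO libraries (-0.46 ± 0.07, edgeR adjusted p = 2.31e-05), while the knockout groups overlapped (0.06 ± 0.07, adjusted p = 0.491). AURKA, the Aurora kinase of centrosomes and spindle poles, read 115, 108 and 111 CPM with DMSO and 101, 96.8 and 84.7 CPM with CC-885 in wild type (-0.24 ± 0.07, adjusted p = 0.00361). In knockout it read 103, 111 and 103.8 CPM against 119, 125 and 121 CPM (0.20 ± 0.07, adjusted p = 0.0106). The treated libraries were thus the lower ones in wild type and the higher ones in knockout, without overlap in either. The rise of AURKA in knockout lost its call in 4 of 15 alternatives, with library totals or upper-quartile factors as scaling, with no filter on low counts and without knockout CC-885 replicate 2 (0.18, edgeR adjusted p = 0.0526), and its value stayed above 0, between 0.05 and 0.23.

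CDK1 and TTK were the kinases on which replicate 3 weighed. CDK1, the kinase of mitotic entry, read 133, 138 and 148 CPM with DMSO and 65.4, 66.7 and 136 CPM with CC-885 in wild type. Its knockout values were 53.6, 57.3 and 67.7 CPM (DMSO) and 30.5, 35.5 and 32.3 CPM (CC-885). TTK, a checkpoint kinase of the kinetochore, read 105, 108 and 119.7 CPM with DMSO and 54.7, 56.7 and 109 CPM with CC-885 in wild type. Knockout cells gave 77.9, 89.8 and 106 CPM with DMSO and 37.8, 36.5 and 31.8 CPM with the drug. Replicate 3 under CC-885 lay inside the DMSO range for both genes, and the other 2 treated libraries lay far below it. With all libraries the wild-type log2 fold changes were -0.65 ± 0.25 (edgeR adjusted p = 0.0401) for CDK1 and -0.59 ± 0.24 (adjusted p = 0.0501, not called) for TTK. Without replicate 3 they were -1.08 (adjusted p = 7.59e-10) and -0.99 (adjusted p = 3.2e-07). The CDK1 call with all libraries was lost when any of wild-type DMSO replicates 1, 2 and 3 or wild-type CC-885 replicates 1 and 2 was left out (adjusted p = 0.0629 to 0.131). In knockout, where the groups did not overlap, the falls were -0.86 ± 0.26 (adjusted p = 0.0109) and -1.37 ± 0.25 (adjusted p = 0.000545).

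**Figure D2:**
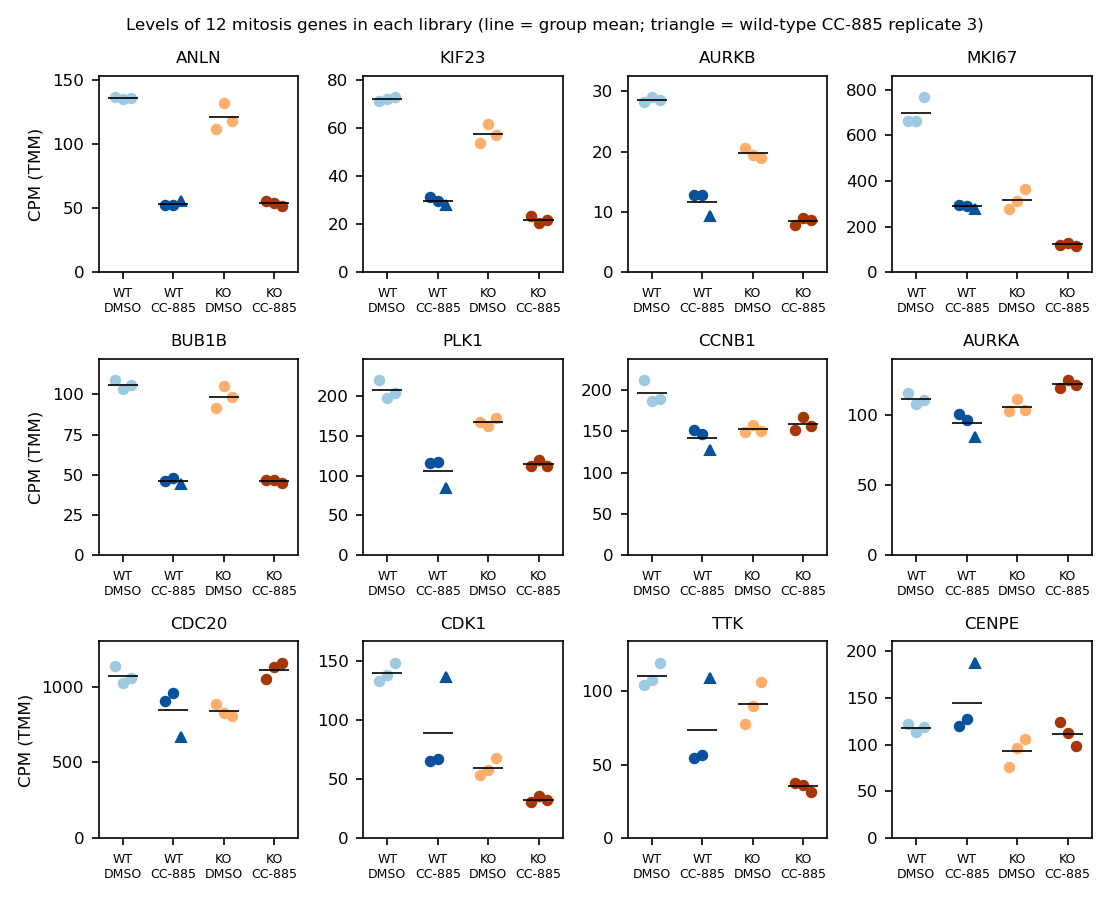
CPM of 12 mitosis genes in each library, by group, with a line at the group mean and a triangle for wild-type CC-885 replicate 3. ANLN, KIF23, AURKB, MKI67 and BUB1B fell in both genotypes, CDC20 fell in wild type and rose in knockout, and the triangle sits far above the other 2 treated wild-type libraries for CDK1 and TTK.

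At the kinetochore and spindle checkpoint, 7 of 8 genes fell in wild type and 6 in knockout. BUB1B, which encodes the checkpoint protein BubR1, read 109, 103 and 106 CPM with DMSO and 46.1, 48.0 and 44.0 CPM with CC-885 in wild type. In knockout the libraries read 91.6, 105 and 98.7 CPM with DMSO and 46.7, 46.5 and 45.1 CPM with CC-885. The treated libraries of the 2 genotypes lay within the same narrow range, and the falls were -1.20 ± 0.06 (edgeR adjusted p = 5.86e-11) and -1.10 ± 0.06 (1.02e-10). BUB1, the kinase that recruits checkpoint proteins to kinetochores, read 200.1, 181 and 182 CPM with DMSO and 121, 122 and 121 CPM with CC-885 in wild type. Its knockout values were 139, 166 and 162 CPM (DMSO) and 135, 134 and 124 CPM (CC-885). Its fall was -0.63 ± 0.07 in wild type and -0.25 ± 0.07 in knockout, where the lowest DMSO library was only just above the highest treated one. CENPA, the histone variant that marks centromeres, fell to 59.3% and 64.3% of its DMSO level (-0.75 ± 0.08 and -0.64 ± 0.08), and CENPF, a large kinetochore protein of G2 and mitosis, to 69.0% and 61.8% (-0.53 ± 0.07 and -0.69 ± 0.07).

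The NDC80 complex, which grips microtubules at the kinetochore, was split between its members. NDC80 itself read 73.9, 67.2 and 69.2 CPM with DMSO and 61.0, 62.4 and 66.0 CPM with CC-885 in wild type. Knockout cells gave 60.6, 65.1 and 60.0 CPM with DMSO and 67.1, 71.1 and 66.1 CPM with the drug. These were small shifts, of -0.15 ± 0.06 (edgeR adjusted p = 0.0375) and 0.14 ± 0.06 (adjusted p = 0.0518, not called), and the wild-type call was lost without any 1 of 4 libraries (wild-type DMSO replicate 1 or 3, wild-type CC-885 replicate 1 or 2). Its partner NUF2 read 62.5, 58.6 and 63.4 CPM with DMSO and 33.9, 33.3 and 52.1 CPM with CC-885 in wild type. In knockout the libraries read 43.9, 52.5 and 52.8 CPM with DMSO and 22.0, 22.7 and 20.8 CPM with CC-885. NUF2 fell in both (-0.63 ± 0.14 and -1.19 ± 0.15). SPC24, a further subunit outside the 35, fell further in both (-2.44 and -3.87).

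MAD2L1, the checkpoint inhibitor of CDC20, read 78.8, 82.7 and 86.1 CPM with DMSO and 32.8, 36.0 and 69.3 CPM with CC-885 in wild type. Its knockout values were 63.6, 69.7 and 90.8 CPM (DMSO) and 26.0, 29.3 and 28.1 CPM (CC-885). Its falls were -0.84 ± 0.25 (edgeR adjusted p = 0.0131) and -1.43 ± 0.26 (adjusted p = 0.000551), and without wild-type CC-885 replicate 3 the former was -1.26. CENPE, the kinetochore motor that brings chromosomes to the spindle equator, read 123, 113 and 119 CPM with DMSO and 119.9, 127 and 188 CPM with CC-885 in wild type. Knockout cells gave 76.5, 96.2 and 106 CPM with DMSO and 124, 113 and 98.9 CPM with the drug. It was the member with the highest wild-type value, 0.29 ± 0.17 (adjusted p = 0.14), and the groups overlapped in both genotypes (knockout 0.27 ± 0.17, adjusted p = 0.168). Without replicate 3 the wild-type value was 0.06 (adjusted p = 0.627).

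Of the anaphase ubiquitin ligase genes, UBE2C, its E2 enzyme, fell in both genotypes, to 53.9% and 56.7% of its DMSO level (-0.89 ± 0.07 and -0.82 ± 0.07). CDC20, its mitotic activator, did not. CDC20 read 1135, 1024 and 1055 CPM with DMSO and 904, 961 and 668 CPM with CC-885 in wild type. In knockout it read 883, 824 and 806 CPM, then 1049, 1126 and 1158 CPM. Treated libraries were all lower in wild type and all higher in knockout, without overlap. The log2 fold change was -0.34 ± 0.10 in wild type (edgeR adjusted p = 0.00779) and 0.41 ± 0.10 in knockout (adjusted p = 0.00212), and without wild-type CC-885 replicate 3 the former was -0.20 (adjusted p = 0.00965). Upper-quartile scaling alone ended the call in knockout (0.26, adjusted p = 0.0504). CDC20 was also the most abundant of the 35 per length of exon, at 526 CPM per kb in wild type under DMSO, ahead of TOP2A at 88.0 and CCNB1 at 76.8, and ECT2 was lowest at 9.62.

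Spindle motors and microtubule proteins ranged from the deepest falls to none. KIF11, the motor that pushes spindle poles apart, read 147, 146 and 141 CPM with DMSO and 52.1, 58.8 and 69.6 CPM with CC-885 in wild type. In knockout the libraries read 55.5, 63.9 and 61.8 CPM with DMSO and 24.4, 24.1 and 21.1 CPM with CC-885. The knockout DMSO libraries thus stood within the range of the treated wild-type ones, and each genotype fell from its own start (-1.26 ± 0.09 and -1.38 ± 0.09). KIF4A, a chromosome-arm motor, fell to 45.7% and 40.6% of its DMSO level (-1.13 ± 0.08 and -1.30 ± 0.09), and NUSAP1, a bundler of spindle microtubules, to 57.7% and 49.8% (-0.79 ± 0.06 and -1.01 ± 0.06). KIF2C, a microtubule-depolymerising kinesin that corrects attachments, fell to 68.8% and 65.6% (-0.54 ± 0.05 and -0.61 ± 0.05), DLGAP5 (HURP), which stabilises kinetochore fibres, to 73.1% and 79.1% (-0.45 ± 0.09 and -0.34 ± 0.09), and TPX2, which activates Aurora A on the spindle, to 79.9% and 85.8% (-0.32 ± 0.07 and -0.22 ± 0.07).

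PRC1 and HMMR moved least of this role. PRC1, the cross-linker of the central spindle, read 178, 164 and 169 CPM with DMSO and 154, 144 and 120.0 CPM with CC-885 in wild type (-0.29 ± 0.08, edgeR adjusted p = 0.00282), without overlap. In knockout it read 149, 162 and 148 CPM, then 156, 162 and 155 CPM, and the groups overlapped (0.04 ± 0.08, adjusted p = 0.652). HMMR, a spindle-pole and hyaluronan-binding protein, read 138, 129 and 129 CPM with DMSO and 106, 117 and 161 CPM with CC-885 in wild type. Its knockout values were 93.0, 106 and 119 CPM (DMSO) and 115, 125 and 115 CPM (CC-885). Replicate 3 was above every DMSO library while replicates 1 and 2 were below them, and the wild-type value went from -0.04 ± 0.13 (adjusted p = 0.798) to -0.24 (adjusted p = 0.0127) without it.

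The passenger complex and cytokinesis genes all fell in wild type (7 of 7), and 6 of 7 fell in knockout. With all libraries, ANLN, the anillin scaffold of the contractile ring, had the deepest wild-type fall of the 35, from 137, 135 and 136 CPM to 52.3, 52.4 and 55.7 CPM. In knockout it went from 112, 132 and 118 CPM to 55.9, 53.8 and 51.5 CPM. All treated libraries of both genotypes lay between 51.5 and 55.9 CPM, and the falls were -1.35 ± 0.07 (edgeR adjusted p = 2.53e-11) and -1.17 ± 0.06 (7.17e-11). Wild-type CC-885 replicates 1 and 2 averaged 52.4 CPM for ANLN (135.8 under DMSO) and 55.4 CPM for KIF11 (144.4 under DMSO). By these means ANLN and KIF11 fell about equally, so the rank of ANLN rests on replicate 3. KIF23, the kinesin of the central spindle complex, read 71.1, 71.9 and 72.9 CPM with DMSO and 31.3, 29.4 and 28.0 CPM with CC-885 in wild type. Knockout cells gave 53.8, 61.6 and 56.9 CPM with DMSO and 23.2, 20.3 and 21.7 CPM with the drug (-1.28 ± 0.07 and -1.40 ± 0.07). Its binding partner RACGAP1, a GTPase-activating protein, was nearly level by contrast, at 83.7% of DMSO in wild type (-0.26 ± 0.06, adjusted p = 0.000579) and 96.0% in knockout (-0.06 ± 0.06, adjusted p = 0.334).

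KIF20A, a cytokinesis kinesin that carries the passenger complex to the midzone, fell to 45.6% and 45.8% of its DMSO level (-1.13 ± 0.10 and -1.13 ± 0.11). BIRC5 (survivin), a passenger complex subunit, fell to 54.0% and 61.8% (-0.89 ± 0.08 and -0.70 ± 0.08). KIF14, a midbody kinesin, fell to 72.2% and 76.9% (-0.47 ± 0.09 and -0.38 ± 0.09), and ECT2, the RhoA activator that sets the furrow, to 73.7% and 66.7% (-0.44 ± 0.10 and -0.58 ± 0.10). Of chromosome structure genes, MKI67, which encodes the proliferation marker Ki-67 that coats mitotic chromosomes, read 663, 661 and 769 CPM with DMSO and 294, 292 and 279 CPM with CC-885 in wild type. In knockout the libraries read 276, 314 and 366 CPM with DMSO and 120.5, 129.8 and 116 CPM with CC-885. No groups within a genotype overlapped (-1.28 ± 0.09 and -1.38 ± 0.09), and the knockout DMSO level was near the treated wild-type level. TOP2A, the topoisomerase that untangles sister chromatids, fell to 58.5% and 51.6% (-0.77 ± 0.06 and -0.96 ± 0.07).

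The response itself differed between genotypes for 8 genes. The interaction (response in knockout minus response in wild type) was above 0 for 7 of 35 genes and below 0 for 1 at an edgeR adjusted p under 0.05, where 17.9% of all genes were above and 16.8% below, and the median over the 35 was 0.07 against -0.01 over all genes. CDC20 had the largest difference, 0.75 ± 0.15 (adjusted p = 0.00115), followed by CCNB1 (0.52 ± 0.10, adjusted p = 0.000994), AURKA (0.44 ± 0.09, adjusted p = 0.00169), PLK1 (0.42 ± 0.14, adjusted p = 0.028) and BUB1 (0.38 ± 0.10, adjusted p = 0.00657). PRC1 (0.33 ± 0.11, adjusted p = 0.0269) and NDC80 (0.29 ± 0.09, adjusted p = 0.0176) were the others above 0. NUF2 was below 0 (-0.56 ± 0.20, adjusted p = 0.0493), and without wild-type CC-885 replicate 3 its difference was -0.31 (adjusted p = 0.0198). Of 20 alternatives, CDC20, CCNB1, AURKA and BUB1 passed in 20, NDC80 in 17, PLK1 and PRC1 in 13 each and NUF2 in 10.

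The 7 genes above 0 fell less in knockout or did not fall. The kinases CDK1, AURKB and TTK and the cyclins CCNA2 and CCNB2 had no called interaction. The number above 0 went from 7 to 4 without knockout CC-885 replicate 2, where NDC80, PLK1 and PRC1 lost their calls. PLK1 and PRC1 also lost them without wild-type DMSO replicate 1 or knockout DMSO replicate 1, PLK1 without knockout DMSO replicate 2 and PRC1 without knockout DMSO replicate 3. NUF2 was called in none of the fits that left out 1 library of wild-type DMSO, 1 of knockout CC-885, or knockout DMSO replicate 2 or 3. Without wild-type CC-885 replicate 3, HMMR (0.40, edgeR adjusted p = 0.00631), TTK (-0.37, adjusted p = 0.0422) and NUSAP1 (-0.25, adjusted p = 0.0211) also passed, and without knockout DMSO replicate 1 the 3 genes below 0 were NUF2, NUSAP1 and TOP2A. With upper-quartile scaling the split over the 35 genes was 4 above and 3 below 0, and over all genes it went from 2871 above and 2691 below to 2168 above and 3291 below.

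Under DMSO, knockout cells held less of many mitosis transcripts. Relative to wild type, 17 of 35 genes were lower and 0 higher (edgeR), where 28.4% of all genes were lower and 21.3% higher, and the median was -0.20 against -0.06 over all genes. DESeq2 and an unadjusted p under 0.05 also gave 0 higher. Each library left out lowered the count, to between 10 and 15, and without wild-type DMSO replicate 1 it was 10 of 35, where 26.3% of all genes were lower. Without knockout DMSO replicate 1, 1 gene was higher. The comparison also moved with the scaling: with upper-quartile factors 7 were lower and 2 higher (KIF4A and TOP2A), and over all genes the split went from 4543 lower and 3415 higher to 3036 and 4685. The difference was deepest for KIF11 (-1.26 ± 0.09, adjusted p = 1.79e-08), CDK1 (-1.23 ± 0.25, adjusted p = 0.00267) and MKI67 (-1.13 ± 0.09, adjusted p = 5.12e-08). All other members lay between -0.54 (AURKB) and 0.13 (KIF4A), and the next after AURKB was ECT2 (-0.51 ± 0.10, adjusted p = 0.000484).

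KIF11, CDK1 and MKI67 are the 3 members on chromosome 10, at 92593286 to 92655395, 60778331 to 60794852 and 128096659 to 128126385 (GRCh38, GENCODE release 29). Their neighbours were low in knockout to a like degree: the median log2 difference under DMSO was -1.05 over 68 tested genes within 5 Mb of KIF11, -0.97 over 19 around CDK1 and -1.15 over 27 around MKI67. Over the whole chromosome, the median of 504 other tested genes was -0.99, which is 50.5% of the wild-type level, with 418 (82.9%) called lower and 18 higher. The chromosome with the next lowest median was 5, at -0.29. All 9 genes of the other cell division lists on chromosome 10 were lower as well, from -1.32 for MASTL, a kinase that holds off the phosphatase opposing CDK1, to -0.99 for ZWINT, a kinetochore protein. Of the 32 members on other chromosomes, 14 were lower and the median was -0.17. Among them CCNB1, KIF20A and HMMR lie on chromosome 5, where the median over tested genes within 5 Mb was -0.337, -0.295 and -0.205. Over all genes tested, chromosome 10 included, 28.4% were lower and the median was -0.06. A trait of the knockout clone and an effect of IRAK4 loss cannot be told apart here.

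**Figure D3:**
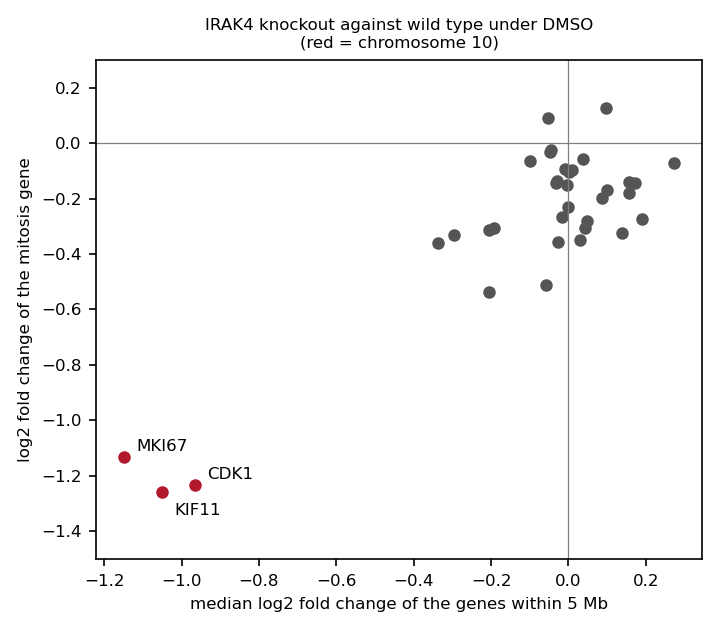
Log2 difference of each mitosis gene between knockout and wild type under DMSO (vertical) against the median over tested genes within 5 Mb of it (horizontal), with chromosome 10 in red. KIF11, CDK1 and MKI67 sit alone at the lower left, between -1.13 and -1.26, with neighbours between -0.97 and -1.15.

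Under CC-885, 14 of 35 genes were lower in knockout and 3 higher (edgeR), where 30.8% of all genes were lower and 27.8% higher, and the median was -0.11 against -0.02 over all genes. The genotype comparisons and the responses share libraries, so their values are given side by side and not as separate evidence. AURKA (0.37 ± 0.07, adjusted p = 0.000155), CDC20 (0.40 ± 0.10, adjusted p = 0.0042) and RACGAP1 (0.17 ± 0.06, adjusted p = 0.0144) were higher, and RACGAP1 lost its call without knockout CC-885 replicate 2 (0.14, adjusted p = 0.0778). With all libraries, CDK1, KIF11 and MKI67 remained lowest, at -1.45, -1.37 and -1.24. TTK (-1.06), NUF2 (-0.86) and MAD2L1 (-0.73, adjusted p = 0.035) followed, and MAD2L1 lost its call without any 1 of the knockout CC-885 libraries (adjusted p = 0.0644 to 0.0909). Without wild-type CC-885 replicate 3, TTK stood at -0.65 and MAD2L1 at -0.31. The other 2 treated wild-type libraries averaged 66.0 CPM for CDK1, 55.4 for KIF11, 293 for MKI67 and 33.6 for NUF2. Treated knockout averaged 32.8, 23.2, 122 and 21.8 CPM. By these means CDK1 was not lower than KIF11 or MKI67, so its place above rests on replicate 3. Without that library CDC20 was 0.25 higher (adjusted p = 0.0024) and CCNA2, at -0.19 with it, did not pass (-0.11, adjusted p = 0.146). Without wild-type CC-885 replicate 1, 6 genes were higher.

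Wild-type CC-885 replicate 3 departed from its group by more than any other library, and its deviation followed the GC content of transcripts. CDK1 (37.0% GC in its longest transcript), MAD2L1 (39.4%) and TTK (40.8%) stood at 2.06, 2.01 and 1.96 times the mean of replicates 1 and 2, and NUF2, CENPE and HMMR at 1.55, 1.52 and 1.44 times. At the other end, CDC20 (57.9%), AURKB (55.6%) and PLK1 (57.1%) stood at 0.717, 0.723 and 0.727 times. Spearman's rho between the deviation and GC content was -0.833 over the 35 genes and -0.513 over 10022 genes above 5 CPM, which share 1 set of libraries and are not independent. Other libraries followed GC content too: rho between each library's deviation from the rest of its group and GC content was 0.782 over the 35 genes and 0.687 over all genes in knockout DMSO replicate 1, -0.607 and -0.335 in knockout DMSO replicate 3, and 0.652 and 0.416 in knockout CC-885 replicate 3. Deviations beyond 0.5 on the log2 scale were found for 6 of 35 members and 9.42% of those genes. The part of GC content in this library's values was not tested. The library's name also carries a prefix (52) shared with 3 DMSO libraries, while the other 8 libraries carry 51. The SD of the members' log2 deviations was 0.414 in this library and 0.062 to 0.15 in the libraries of the other groups. Within the 8 libraries of prefix 51, wild type under DMSO keeps 1 library. The spread of that group cannot be measured there, so counts of calls within prefix 51 are not given on their own. That fit is still 1 of the alternatives over which passed, lost and gained calls are counted in this text.

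**Figure D4:**
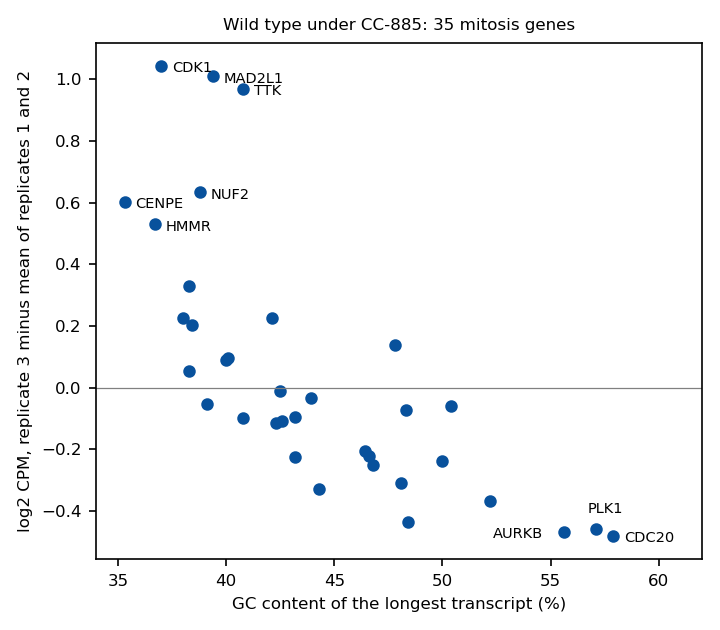
Difference in log2 CPM between replicate 3 and the mean of replicates 1 and 2 of wild type under CC-885 (vertical) against the GC content of each mitosis gene's longest transcript (horizontal). Genes with low GC content, led by CDK1, MAD2L1 and TTK, lie above 0, and CDC20, AURKB and PLK1 lie at the lower right.

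DNA replication genes, which are transcribed earlier in the cycle, had larger falls by median than the mitosis genes. All 40 listed replication genes had a value below 0 in both genotypes and 39 passed the test (not ORC6), with a median of -1.39 in wild type and -2.04 in knockout, beside -0.63 and -0.70 for the mitosis genes. UHRF1, which keeps DNA methylation through replication, fell most (-2.80 and -4.76). Their summed level went from 6292 ± 114 to 2299 ± 58.8 CPM in wild type and from 5847 ± 55.9 to 1312 ± 20.2 CPM in knockout. The interactions differed in count as well: 28 of 40 replication genes were called as falling further in knockout (median -0.63), and 1 of 35 mitosis genes did by the same test (3 without wild-type CC-885 replicate 3), where 16.8% of all genes were called below 0. Without regard to the test, 37 of 40 replication genes and 14 of 35 mitosis genes had an interaction below 0. The lists were not tested against each other.

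**Figure D5:**
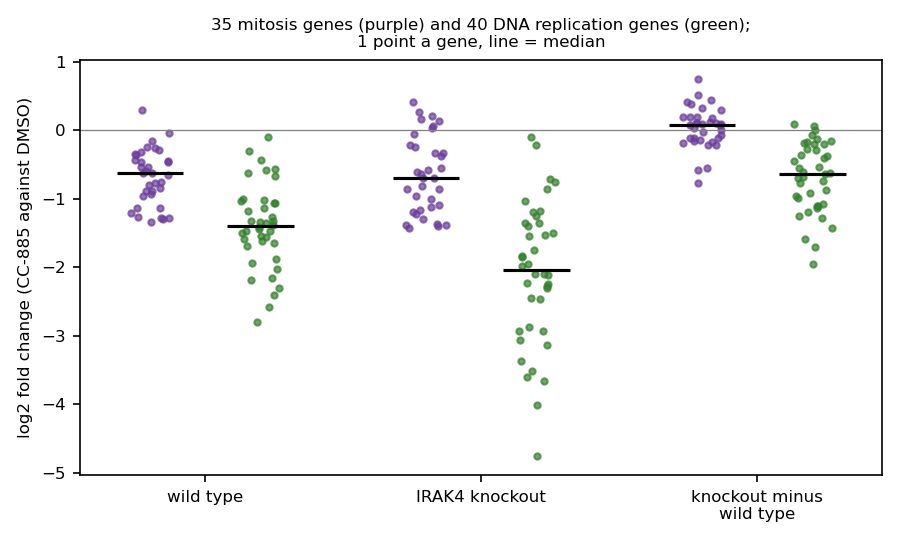
Log2 fold change under CC-885 of 35 mitosis genes (purple) and 40 DNA replication genes (green) in wild type, in knockout, and as the difference between genotypes, 1 point a gene, with a line at the median. The replication genes lie lower in both genotypes, at medians of -1.39 and -2.04, and their differences between genotypes centre on -0.63 where those of the mitosis genes centre on 0.07.

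Other genes of division, taken from lists by function, fell for the most part. Of all genes tested, 36.6% were lower and 35.7% higher in wild type, and 40.0% and 38.9% in knockout, which holds as the background of each list. Of 40 further kinetochore and checkpoint genes, 27 fell and 2 rose in wild type, and 28 fell and 4 rose in knockout (medians -0.72 and -1.02), with SPC24 deepest and CENPC, a foundation of the inner kinetochore, up by 0.96 and 0.73. Of 30 further spindle, centrosome and cytokinesis genes, 27 fell in wild type and 25 in knockout (medians -0.64 and -0.66). PBK, a mitotic kinase, fell in both (-1.87 and -2.65), as did PLK4, the kinase of centriole duplication (-0.85 and -1.17). TROAP, a spindle-associated protein, was the only gene of that list to rise, in knockout (0.61 ± 0.12, edgeR adjusted p = 0.000318), and its interaction was 0.74 ± 0.17 (adjusted p = 0.00428). Of 17 condensin and cohesin genes, 11 fell in each genotype (NCAPD3, a condensin II subunit, with -1.38 and -2.10), and 4 rose in wild type and 5 in knockout, with the cohesin subunit STAG1 at 0.92 and 1.35.

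Genes of the anaphase-promoting complex and its regulators moved both ways. Of 19 genes, 12 fell and 4 rose in wild type and 13 fell and 5 rose in knockout (medians -0.32 and -0.47). FBXO5, the inhibitor of the ligase in S phase and G2, fell from 68.9 ± 1.81 to 20.8 ± 3.43 CPM in wild type and from 65.0 ± 4.85 to 10.4 ± 1.53 CPM in knockout. UBE2S, the E2 that extends its ubiquitin chains, rose from 199 ± 11.3 to 314 ± 17.5 CPM and from 156 ± 11.9 to 442 ± 33.0 CPM. The rise of UBE2S was larger in knockout (interaction 0.84 ± 0.10, edgeR adjusted p = 1.99e-05), while CDC20 fell in wild type.

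Regulators of entry and of mitotic transcription moved both ways. Of 18 genes of mitotic entry control, 9 fell in each genotype and 6 rose in wild type and 7 in knockout. Their shares of rises were near those of all genes (35.7% and 38.9%). CDKN1A, the p21 inhibitor of cyclin-dependent kinases, rose from 25.8 ± 4.94 to 378 ± 56.9 CPM in wild type (3.87 ± 0.14, edgeR adjusted p = 6.39e-11) and from 36.6 ± 3.33 to 391 ± 5.95 CPM in knockout (3.42 ± 0.14, adjusted p = 9.6e-11). GADD45A, a stress-responsive inhibitor of CDK1, rose by 1.85 and 0.66 (interaction -1.19, adjusted p = 7.16e-07). The phosphatase CDC25A fell in both (-2.34 and -2.80), while its mitotic relatives moved little: CDC25B had values of -0.37 (adjusted p = 0.0241) and -0.20 (adjusted p = 0.187), and CDC25C of -0.16 (adjusted p = 0.11) and -0.20 (adjusted p = 0.0536). WEE1, the kinase that restrains CDK1, fell in both (-0.25 and -0.38).

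Of 18 regulators of mitotic gene transcription, 9 fell and 4 rose in wild type, and 8 fell and 6 rose in knockout. FOXM1, the forkhead activator of G2 genes, went from 82.3 ± 2.73 to 43.7 ± 3.19 CPM in wild type and from 75.7 ± 1.82 to 32.1 ± 0.332 CPM in knockout. MYBL2, its partner at these promoters, went from 328 ± 6.24 to 125 ± 1.99 CPM and from 332 ± 7.66 to 79.0 ± 4.84 CPM. Both fell further in knockout (interactions -0.32, edgeR adjusted p = 0.01, and -0.68, adjusted p = 1.05e-05). A link between these regulators and the responses of the mitosis genes was not tested. E2F8, a repressor of the E2F family, fell in both (-2.52 and -3.83).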

How the data were processed

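The deposited table holds raw read counts per gene symbol for 12 libraries, with no normalization by the authors. Per the submitters' processing notes it was made with HISAT2 2.0.5 and featureCounts 1.5.2 on GRCh38, after FastQC 0.11.2. The labels' extract protocol names a mouse build instead, but the symbols are human. Strand, reads with several matches and the counting of pairs are not stated in the sources used here, so overlapping genes and near-identical copies carry an uncertainty that the errors do not include.

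Genes were kept with filterByExpr by group (16010 genes, 99.98% of counts) and scaled by TMM factors. In R 4.3.3, edgeR 4.0.16's robust quasi-likelihood model with 1 coefficient per group was fitted to all 12 libraries, which held 46903984 to 56675539 counts. The contrasts were the drug response of each genotype, the genotype difference with and without drug, and the interaction. P-values were adjusted by Benjamini-Hochberg over all genes, and those under 0.05 are the calls. Standard errors derive from the F statistic. Levels are CPM with TMM factors, and rises and falls are relative to other transcripts. The model was tested on simulated data. DESeq2 1.42.0 and other scalings, filters, covariates and left-out libraries were alternatives. No covariate entered the model. Replicate numbers are shared by the groups but were not taken to pair libraries.

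All 35 mitosis genes are described. From 7 other lists (182 genes, all tested) the text names the largest called rises and falls, called genes against their list's majority, and a fixed set of regulators. CDC20's promoter and genes singled out for replicate 3 or chromosome 10 were chosen after their values were seen. Members and lists were chosen with earlier results of these data known. Positions, GC content and exon lengths are from GENCODE release 29 (GRCh38), and promoters from RefSeq (GRCh38.p14). Some genes of these lists are not reported here.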

Additional observations from a re-analysis of the deposited data

Results flagged for a closer look

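For 8 mitosis genes the response to CC-885 differed between knockout and wild type by the test of the difference itself (edgeR, Benjamini-Hochberg adjusted over all genes), 7 above and 1 below 0, where 17.9% of all genes were above and 16.8% below. The response in knockout minus that in wild type is given on the log2 scale with all libraries, wild-type CC-885 replicate 3 included. It was 0.75 for CDC20, 0.52 for CCNB1, 0.44 for AURKA, 0.42 for PLK1, 0.38 for BUB1, 0.33 for PRC1, 0.29 for NDC80 and -0.56 for NUF2. CDC20 and AURKA are the genes called in opposite directions by genotype. CCNB1, NDC80 and PRC1 passed as lower in wild type and did not pass in knockout. PLK1 and BUB1 fell in both, less so in knockout, and NUF2 fell in both, more so in knockout. PLK1, PRC1 and NUF2 passed in 13, 13 and 10 of 20 alternatives. With 3 libraries a group, no library was tested as standing apart for single genes.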

How the results depend on the processing

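No called value of the 35 genes changed sign under the alternatives run. Single-gene calls were lost or gained 14 and 10 times for the wild-type response, 6 and 6 for knockout, 58 and 21 for the genotypes under DMSO, 23 and 17 under CC-885, and 27 and 18 for the interaction. Leaving out 1 library at a time gave 30 to 34 genes lower and 0 higher in wild type under CC-885, 26 to 27 lower and 1 to 3 higher in knockout, 10 to 15 lower and 0 to 1 higher for knockout against wild type under DMSO, 11 to 15 lower and 2 to 6 higher for the same under CC-885, and 4 to 8 interactions above and 0 to 3 below 0. With the library-name prefix as a covariate, 1 gene (CENPE) was higher in wild type and 3 interactions were below 0. In knockout, the genes called higher numbered 1 with library totals as scaling, 0 with upper-quartile factors, 1 without the filter on low counts, and 3 with the prefix as a covariate. Knockout against wild type under DMSO gave 11 lower with library totals, 7 lower and 2 higher with upper-quartile factors, 12 lower without the filter and 1 higher when only the groups compared were fitted. Under CC-885 the same comparison gave 6 higher with upper-quartile factors and 5 with DESeq2's size factors in edgeR, and 2 without the filter. Interactions below 0 numbered 2 with library totals, 3 with upper-quartile factors and 2 without the filter, and those above 0 numbered 4 with upper-quartile factors and 4 without the filter. The fit of only the groups compared gives no interaction. With upper-quartile factors the median over all genes went from -0.03 to -0.18 in knockout under CC-885 and from -0.06 to 0.06 for the genotypes under DMSO. The lowest count of a member in any library was 412.

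The replicate numbers were not taken to pair libraries: same-numbered libraries correlated above 0.1 in 2 of 18 pairs. A replicate block gave 32 lower in wild type, 27 lower and 2 higher in knockout, 17 lower under DMSO, 14 lower and 4 higher under CC-885, and 7 interactions above and 1 below 0.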
